A study of Mus with 96 samples.

Results

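The 9 genes described here, which the nuclear receptor PPARα strongly induces in liver, were followed across genotype, diet, sex and time of day: Cyp4a10, Cyp4a14, Cyp4a31, Acot1, Acot2, Acot3, Vnn1, Pdk4 and Ehhadh. They were taken from the count table by gene name, 1 row for each, so the set holds 9 of the 55487 genes in the table. All 9 passed the filter on low counts, which kept 15548 genes. PPARα is a receptor for fatty acids and their derivatives that pairs with RXR on DNA and, in the liver, raises the genes of fatty acid oxidation and ketone production during fasting. The members stand at different steps of that response. Cyp4a10, Cyp4a14 and Cyp4a31 encode cytochrome P450 enzymes of the endoplasmic reticulum that hydroxylate fatty acids at the far (omega) end of the chain. Acot1, Acot2 and Acot3 encode acyl-CoA thioesterases of the cytosol, the mitochondria and the peroxisomes, which release free fatty acids from coenzyme A. Vnn1 encodes vanin-1, a pantetheinase that yields the vitamin precursor of coenzyme A. Ehhadh encodes the bifunctional enzyme of peroxisomal β-oxidation. Pdk4 encodes a kinase that shuts pyruvate dehydrogenase off and so spares glucose.

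The libraries came from livers of 96 C57BL/6J mice aged 8–10 weeks. Hep-Bmal1KO mice carried Bmal1 flx/flx and the Cre recombinase under the albumin promoter, which deletes the floxed Bmal1 exon in hepatocytes and leaves the other liver cells with the gene. Hep-Bmal1WT littermates carried the same floxed alleles without Cre. Both genotypes received normal chow (NC) or, for 2 weeks, a choline-deficient high-fat diet (cdHFD), used to induce steatohepatitis, with free access to food under a light-dark cycle. NC held 27% protein, 14% fat and 59% carbohydrate. The cdHFD held 9% protein, 60% fat and 31% carbohydrate, with 2% cholesterol and 0.17% methionine. The parts of these differences between the diets cannot be told apart. Livers were taken at ZT 2, 6, 10, 14, 18 and 22, the hours after lights on, from 4 mice in each of the 24 groups. Each group held 2 males and 2 females except Hep-Bmal1WT on cdHFD at ZT14, with 3 males and 1 female.

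RNA was counted at the 3′ end of each transcript by BRB-seq, with totals between 1861740 and 9718615 reads per library (median, 6412078.5), so levels below are given as CPM, read counts scaled to the library total after TMM normalisation, and are compared between samples, not between genes. The deletion could not be checked on Arntl, the name of Bmal1 in the table, because 3′ reads may lie outside the deleted exon: mean Arntl levels ran from 0.748 to 20.2 CPM over the day in Hep-Bmal1WT mice on NC, and from 5.74 to 9.83 CPM in Hep-Bmal1KO mice. The positions of 10 clock genes were used instead. Each library was placed on the line between the medians of the genotype labels, taken over the other livers of its diet and time. Both sexes entered these medians, each of at most 4 livers. By this position, 13 of the 96 libraries lay nearer the median of the other genotype label than that of their own, 4 of 24 in Hep-Bmal1WT and 3 of 24 in Hep-Bmal1KO on NC, and 5 of 24 and 1 of 24 on cdHFD. Of these 13, 7 lay past 0.75 of the way. On NC, 6 of the 7 such livers were female, 3 of 12 in each genotype. No library was moved to another group, and some of the comparisons that these livers touch are given with and without them. The other comparisons are given with all libraries only. The discordant livers were picked by genes that differ between the genotypes, so leaving them out can itself widen genotype differences. Y-linked genes and Xist matched the sex label in 95 of 96 libraries. Each of the 12 columns of library positions held 1 genotype and diet, so column and group cannot be told apart, nor can diet and time be told apart from the numbers that open the sample titles, which fell in 12 ranges without overlap, 1 for each diet and time. Nothing states that livers of a group came from separate litters, so p-values measure the spread between these livers.

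The 3 Cyp4a genes lie side by side on chromosome 4 of mm10: Cyp4a14 (ENSMUSG00000028715) at chr4:115486200-115496158, Cyp4a10 (ENSMUSG00000066072) at chr4:115518287-115533649 and Cyp4a31 (ENSMUSG00000028712) at chr4:115563627-115579015. The thioesterases form another cluster, with Acot2 (ENSMUSG00000021226) at chr12:83987861-83993877, Acot1 (ENSMUSG00000072949) at chr12:84009502-84017670 and Acot3 (ENSMUSG00000021228) at chr12:84052144-84060400. Vnn1 (ENSMUSG00000037440) lies at chr10:23894688-23905344, Pdk4 (ENSMUSG00000019577) at chr6:5483351-5496278 and Ehhadh (ENSMUSG00000022853) at chr16:21761285-21787834. Members of each cluster belong to one gene family, and how alike their sequences are was not measured here. How reads that matched more than 1 copy were handled is not shown by the table, so the split of reads within each cluster is uncertain, and Cyp4a10 against Cyp4a31 and Acot1 against Acot2 and Acot3 are to be read with that limit.

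Most of these genes were higher in females. On NC, 8 of the 9 members were higher in females at adjusted p under 0.05 in a fit over both genotypes and all times, all but Pdk4, and none was lower (edgeR, 15548 genes tested, 10.2% of all genes were higher in females and 8.28% lower). Cyp4a10 in Hep-Bmal1WT mice ranged from 169 to 435 CPM in 12 males (median, 336) and from 366 to 775 CPM in 12 females (median, 642). The 2 ranges overlapped at their edges. Over both genotypes the difference was 1.74 on the log2 scale (SE, 0.18, adjusted p = 1.26e-10). In Hep-Bmal1KO mice the medians were further apart, at 78.8 CPM in males and 449 CPM in females. Acot3, the peroxisomal thioesterase, stood furthest apart: in Hep-Bmal1WT mice it ranged from 1.55 to 25.5 CPM in males (median, 9.62) and from 27.3 to 197 CPM in females (median, 121), with no overlap. Over both genotypes its female excess was 3.94 on the log2 scale (SE, 0.31, adjusted p = 2.75e-14). In the same fit, Cyp4a14 was higher in females by 1.91 (SE, 0.28), Vnn1 by 1.02 (SE, 0.14), Acot2 by 0.86 (SE, 0.17), Acot1 by 0.81 (SE, 0.15), Cyp4a31 by 0.75 (SE, 0.16) and Ehhadh by 0.47 (SE, 0.10). Male and female medians in Hep-Bmal1WT mice were 414 and 735 CPM for Cyp4a14, 49.4 and 65.1 CPM for Vnn1 and 20.7 and 21.8 CPM for Ehhadh. In Hep-Bmal1KO mice they were 102 and 1084 CPM, 19.3 and 54.7 CPM, and 13.5 and 25.2 CPM. No test of sex within 1 genotype is given. Pdk4 differed by -0.03 (SE, 0.27, adjusted p = 0.955). On cdHFD, 7 members were higher in females and none lower (edgeR, 3.33% and 2.48% of all genes). The excess there was 1.57 for Acot3 (SE, 0.21), 0.77 for Cyp4a10 (SE, 0.11) and 0.73 for Cyp4a14 (SE, 0.11). With each replicate number left out in turn, these 3 and Vnn1 passed in 4 of 4 fits, Acot1 in 2 and Cyp4a31 and Ehhadh in 1. Acot2 differed by 0.26 (SE, 0.10, adjusted p = 0.134) and Pdk4 by 0.24 (SE, 0.19, adjusted p = 0.600). Over both genotypes, the sex difference itself differed between diets for 4 members, all of them with a smaller female excess on cdHFD: Acot3 by -2.46 (SE, 0.38, adjusted p = 1.58e-06), Cyp4a14 by -1.22 (SE, 0.29, adjusted p = 0.00243), Cyp4a10 by -0.98 (SE, 0.21, adjusted p = 0.00059) and Acot2 by -0.58 (SE, 0.19, adjusted p = 0.0494). That test was added after the sex effects had been seen (edgeR interaction of diet and sex, 4.35% of all genes lower, 3.71% higher). It averaged the genotypes, and for Cyp4a10 and Cyp4a14 the female excess shrank mainly in Hep-Bmal1KO mice. In Hep-Bmal1WT mice mean Cyp4a10 was 318 CPM in males and 609 CPM in females on NC, and 221 and 412 CPM on cdHFD. In Hep-Bmal1KO mice it was 86.9 and 502 CPM, then 237 and 362 CPM. Mean Cyp4a14 was 427 and 736 CPM, then 449 and 756 CPM, in Hep-Bmal1WT mice. In Hep-Bmal1KO mice it was 158 and 1025 CPM, then 565 and 906 CPM. Omega-hydroxylases of the same family are known to differ by sex in both directions, and Cyp4a12a and Cyp4a12b, which are typical of males, were lower in females on NC by -7.39 and -7.32 on the log2 scale.

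**Figure D1:**
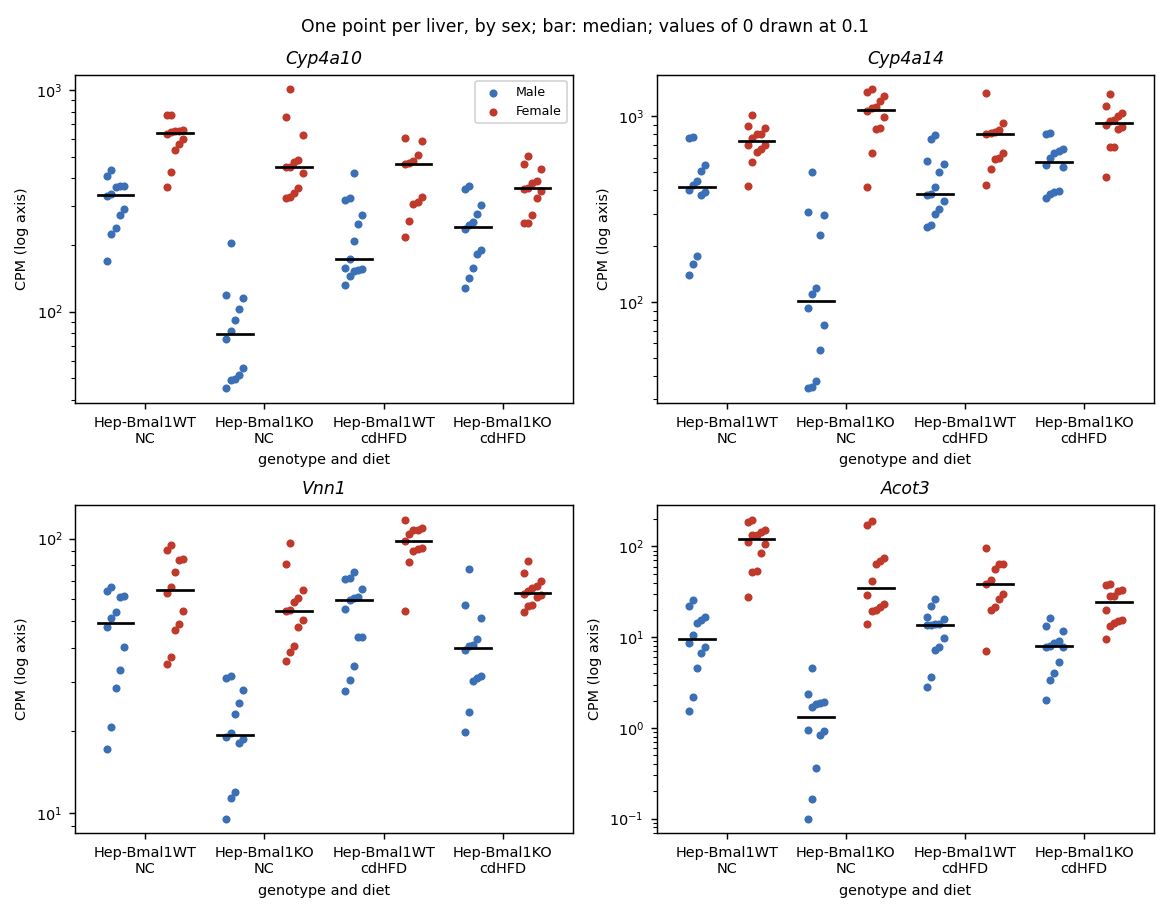
Levels of Cyp4a10, Cyp4a14, Vnn1 and Acot3 in CPM on a log axis, 1 point for each of the 96 livers, by genotype, diet and sex, with a bar at the median and 1 value of 0 for Acot3 drawn at 0.1. In Hep-Bmal1KO mice on NC, the 12 males have a median of 78.8 CPM for Cyp4a10 and the 12 females 449 CPM, with no overlap.

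On NC, 7 members were lower in Hep-Bmal1KO males. In males alone, Cyp4a10, Cyp4a14, Acot1, Acot2, Acot3, Vnn1 and Ehhadh were lower in Hep-Bmal1KO than in Hep-Bmal1WT mice and Pdk4 was higher (edgeR with time as a factor, 12 males in each genotype, of all genes 5.32% were lower and 5.69% higher). Cyp4a31 differed by 0.21 (SE, 0.14, adjusted p = 0.439). These fits within 1 sex, alternatives to the fit over both sexes, were taken up as results after the sex effects had been seen. Cyp4a10 ranged from 169 to 435 CPM in Hep-Bmal1WT males (median, 336) and from 45.1 to 204 CPM in Hep-Bmal1KO (median, 78.8), and the ranges overlapped at their edges. The log2 fold change was -1.94 (SE, 0.19, adjusted p = 2.65e-08). Cyp4a14 ranged from 139 to 775 CPM in Hep-Bmal1WT males (median, 414) and from 34.4 to 502 CPM in Hep-Bmal1KO males (median, 102), a change of -1.69 (SE, 0.26, adjusted p = 3.4e-05). The ranges overlapped widely. Acot3 was between 0 and 4.62 CPM in Hep-Bmal1KO males (median, 1.31), and its change was -2.87 (SE, 0.41, adjusted p = 9.95e-06). Acot1 fell by 1.18 (SE, 0.20), Vnn1 by 1.09 (SE, 0.17), Acot2 by 0.75 (SE, 0.17) and Ehhadh by 0.54 (SE, 0.11), while Pdk4 rose by 1.13 (SE, 0.33, adjusted p = 0.0215). On NC the males of each group are replicates 1 and 2. In the 2 fits that left out one or the other, Cyp4a10, Cyp4a14, Acot1, Acot3 and Vnn1 passed in both, Acot2 and Ehhadh only without replicate 1, and Pdk4 in neither, at 0.79 without replicate 1 and 1.55 without replicate 2 (adjusted p up to 0.311). For Acot1 the median went from 93.5 CPM in Hep-Bmal1WT males to 29.9 CPM in Hep-Bmal1KO males, and for Vnn1 from 49.4 to 19.3 CPM.

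In females on NC, 2 members were higher in Hep-Bmal1KO mice and none was lower (edgeR, 2.07% and 1.44% of all genes). Cyp4a31 had a median of 16.4 CPM in 12 Hep-Bmal1WT females and 33.98 CPM in 12 Hep-Bmal1KO females, and rose by 0.97 on the log2 scale (SE, 0.18, adjusted p = 0.00217). Cyp4a14 had medians of 735 and 1084 CPM and rose by 0.45 (SE, 0.11, adjusted p = 0.0135), the opposite direction to males. Without replicate 3 or replicate 4, the females of each group, Cyp4a31 passed only without replicate 4 (1.21) and Cyp4a14 in neither fit (0.54 and 0.35). The values for Cyp4a10 were -0.31 (SE, 0.15, adjusted p = 0.297), for Acot1 -0.48 (SE, 0.19, adjusted p = 0.171) and for Acot3 -0.97 (SE, 0.37, adjusted p = 0.166). The female counts depended on the 6 clock-discordant females. These were picked because their clock genes lay nearer the other genotype, so leaving them out can itself widen genotype differences. The shares of all genes rose as well. Without them 2 members were higher and 3 lower (edgeR, 4.1% and 3.02% of all genes). Among them were Acot3 at -2.01 (adjusted p = 9.48e-06), Acot1 at -0.71 (adjusted p = 0.0003) and Cyp4a10 at -0.52 (adjusted p = 0.00216).

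The genotype effect differed between the sexes on NC for 4 members, all in the direction of a more positive effect in females (edgeR interaction, 0.322% of all genes in that direction and 0.187% in the other). The difference between the female and the male effect was 1.62 for Cyp4a10 (SE, 0.24, adjusted p = 0.000127), 2.16 for Cyp4a14 (SE, 0.44, adjusted p = 0.0103), 0.94 for Vnn1 (SE, 0.23, adjusted p = 0.0456) and 0.69 for Ehhadh (SE, 0.17, adjusted p = 0.0456). In this test 8 members had an unadjusted p under 0.05 (8.5% of all genes), and Pdk4 was at -0.04 (SE, 0.58). Without the clock-discordant libraries Cyp4a10 (1.76), Cyp4a14 (3.01) and Cyp4a31 (1.02) passed, and Vnn1 (0.89, adjusted p = 0.0564) and Ehhadh (0.64, adjusted p = 0.146) did not. Leaving out each replicate number in turn left between 1 and 2 members past the threshold, Cyp4a10 in all 4 fits and Cyp4a14 in 1 of 4.

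On cdHFD no member passed the test of genotype by sex, and none had an unadjusted p under 0.05 (edgeR and DESeq2 both called 0 members, with 0% of all genes called by edgeR in either direction). Of all genes, 8.54% had an unadjusted p under 0.05 by edgeR. The estimates were -0.34 for Cyp4a10 (SE, 0.23) and -0.13 for Cyp4a14 (SE, 0.22). In males, Cyp4a10 ranged from 132 to 423 CPM in 13 Hep-Bmal1WT mice (median, 172) and from 127 to 370 CPM in 12 Hep-Bmal1KO mice (median, 241), ranges that covered each other. In males 2 members, Cyp4a31 (0.62, SE, 0.17) and Pdk4 (1.22, SE, 0.31), were higher in Hep-Bmal1KO mice and none was lower (2.57% and 2.53% of all genes). In females Cyp4a31 was higher by 0.43 (SE, 0.10) and Vnn1 lower by -0.57 (SE, 0.09, 1.67% and 2.53% of all genes). The change in the sex-dependence of the genotype effect from NC to cdHFD passed for 2 members, Cyp4a10 at -1.96 (SE, 0.35, adjusted p = 0.00116) and Cyp4a14 at -2.29 (SE, 0.51, adjusted p = 0.0312), and for none in the other direction (edgeR interaction of genotype, sex and diet, 0.0772% and 0.0193% of all genes). With each replicate number left out in turn this count lay between 0 and 2.

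**Figure D2:**
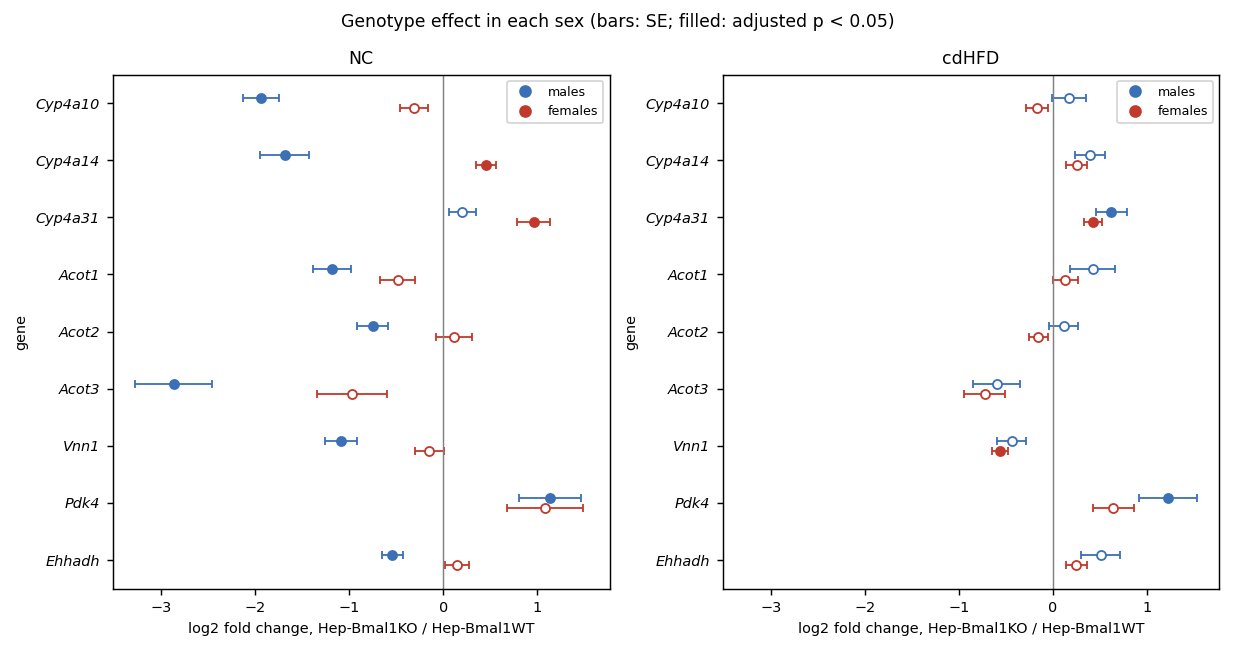
Log2 fold change of Hep-Bmal1KO over Hep-Bmal1WT mice for the 9 genes in males and in females, on NC at left and on cdHFD at right, with bars for the SE and filled points for adjusted p under 0.05. On NC the male points of Cyp4a10 and Cyp4a14 lie at -1.94 and -1.69 and the female points at -0.31 and 0.45, while on cdHFD the points of both sexes lie side by side.

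Over both sexes, 3 members passed the genotype comparison on NC. Cyp4a31 and Pdk4 were higher in Hep-Bmal1KO mice and Acot1 was lower (edgeR, 24 livers in each genotype, 7.08% of all genes higher and 5.45% lower). Acot1 ranged from 27.8 to 224 CPM in Hep-Bmal1WT mice (median, 98.5) and from 18.7 to 240.3 CPM in Hep-Bmal1KO mice (median, 49.9), a fall of 0.74 on the log2 scale (SE, 0.21, adjusted p = 0.0102). This call was lost without replicate 1 and without replicate 2, where the adjusted p reached 0.0794. Pdk4 was low throughout, with medians of 1.35 and 3.40 CPM, and rose by 1.09 (SE, 0.28, adjusted p = 0.00483). Cyp4a31 had medians of 14.1 and 21.6 CPM and rose by 0.67 (SE, 0.19, adjusted p = 0.0142). Cyp4a14 came out at 0.01 (SE, 0.35), beside -1.69 in males and 0.45 in females. With sex as a covariate 2 members were higher and 4 lower, and the same counts were found without the 7 clock-discordant NC livers, where Cyp4a10 (-0.91, adjusted p = 0.0484), Acot3 (-1.92, adjusted p = 0.0368) and Vnn1 (-0.72, adjusted p = 0.0101) also passed. The share of all genes called was not counted in these fits.

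On cdHFD, Pdk4 and Cyp4a31 were again higher in Hep-Bmal1KO mice and Vnn1 was lower (edgeR, 4.75% of all genes higher and 4.92% lower). Pdk4 ranged from 0.639 to 7.26 CPM in Hep-Bmal1WT mice (median, 3.75) and from 2.53 to 19.3 CPM in Hep-Bmal1KO mice (median, 6.88), a rise of 1.03 (SE, 0.21, adjusted p = 0.000481). Cyp4a31 rose by 0.52 (SE, 0.13, adjusted p = 0.0061), from a median of 44.6 to 67.7 CPM. Vnn1 went from a median of 71.4 to 57.1 CPM, a change of -0.47 (SE, 0.15, adjusted p = 0.0282), and without each replicate number in turn it passed in 1 of 4 fits. With the sexes pooled, Pdk4 and Cyp4a31 were thus higher in Hep-Bmal1KO mice on both diets. Pdk4 was called in males on both diets but not in females. There it was at 1.09 on NC (SE, 0.40, edgeR adjusted p = 0.149) and 0.65 on cdHFD (SE, 0.22, adjusted p = 0.0997). Cyp4a31 was called in each sex on cdHFD, and on NC in females only. In the pooled fits with each replicate number left out in turn, Pdk4 passed in 3 of 4 fits on NC (0.92–1.27) and in 4 of 4 on cdHFD (0.92–1.10), and Cyp4a31 in 3 of 4 on each diet. The genotype effect differed between the diets for Acot1 alone among the members, by 1.05 on the log2 scale (SE, 0.28, adjusted p = 0.0188, edgeR interaction, 1.04% of all genes in this direction and 2% in the other), and it passed in 1 of the 4 fits that left out a replicate number. Tested in males alone, it differed by 2.11 for Cyp4a10 and 2.08 for Cyp4a14 (edgeR, adjusted p = 3.53e-06 and 8.4e-05). In females alone the values were 0.14 and -0.20 (adjusted p = 0.849 and 0.683).

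On cdHFD some members rose and others fell. Acot2, the mitochondrial thioesterase, ranged from 4.14 to 22.5 CPM in Hep-Bmal1WT mice on NC (median, 12.8) and from 38.1 to 154 CPM on cdHFD (median, 80.4). The groups did not overlap, and in Hep-Bmal1KO mice the ranges were 2.90–25.9 CPM (median, 8.76) and 42.9–177 CPM (median, 81.98), again apart. Acot2 rose by 2.79 on the log2 scale in Hep-Bmal1WT (SE, 0.15, adjusted p = 1.38e-21) and by 2.995 in Hep-Bmal1KO mice (SE, 0.18, adjusted p = 2.07e-20). Its neighbour Acot1 rose by 1.22 in Hep-Bmal1KO mice (SE, 0.20, adjusted p = 7.76e-07), from a median of 49.9 to 127 CPM, and was at 0.17 in Hep-Bmal1WT mice (SE, 0.17, adjusted p = 0.405). Acot3 went the other way in Hep-Bmal1WT mice, with -1.25 (SE, 0.44, adjusted p = 0.0133). In Hep-Bmal1WT mice 5 members were higher and 2 lower on cdHFD, and in Hep-Bmal1KO mice 5 were higher and none lower (edgeR). The background was large, with 28.4% of all genes higher and 27.3% lower in Hep-Bmal1WT mice, and 32.4% and 29.6% in Hep-Bmal1KO mice.

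Of the Cyp4a genes, Cyp4a31 rose on cdHFD by 1.49 in Hep-Bmal1WT (SE, 0.16, adjusted p = 5.04e-11) and by 1.34 in Hep-Bmal1KO mice (SE, 0.17, adjusted p = 1.96e-09), while Cyp4a10 fell by 0.62 in Hep-Bmal1WT mice (SE, 0.17, adjusted p = 0.00201) and Cyp4a14 was at -0.0019 (SE, 0.18, adjusted p = 0.995). Vnn1 rose by 0.44 (SE, 0.16), Pdk4 by 1.04 (SE, 0.29) and Ehhadh by 0.33 (SE, 0.14) in Hep-Bmal1WT mice. With each replicate number left out in turn, Cyp4a10 passed in 3 of 4 fits in Hep-Bmal1WT mice, Acot3 and Vnn1 in 2 and Ehhadh in 1. In Hep-Bmal1KO mice Pdk4 rose by 1.02 (SE, 0.23) and Ehhadh by 0.85 (SE, 0.14), and Vnn1 was at 0.44 (SE, 0.20, adjusted p = 0.0503).

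The diet comparison also split by sex. In Hep-Bmal1KO males Cyp4a14 was higher on cdHFD than on NC by 2.24, Cyp4a10 by 1.52 and Acot3 by 2.42 on the log2 scale (edgeR, adjusted p = 4.61e-07, 2.02e-07 and 1.4e-06). In Hep-Bmal1KO females Acot3 was lower, at -1.25 (adjusted p = 0.00125), as was Cyp4a10, at -0.44 (adjusted p = 0.00506). In Hep-Bmal1WT males Acot3 was at 0.10 (adjusted p = 0.799), and in females at -1.44 (adjusted p = 0.00023). Acot2 was higher in both sexes of both genotypes, by values from 2.55 to 3.72.

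**Figure D3:**
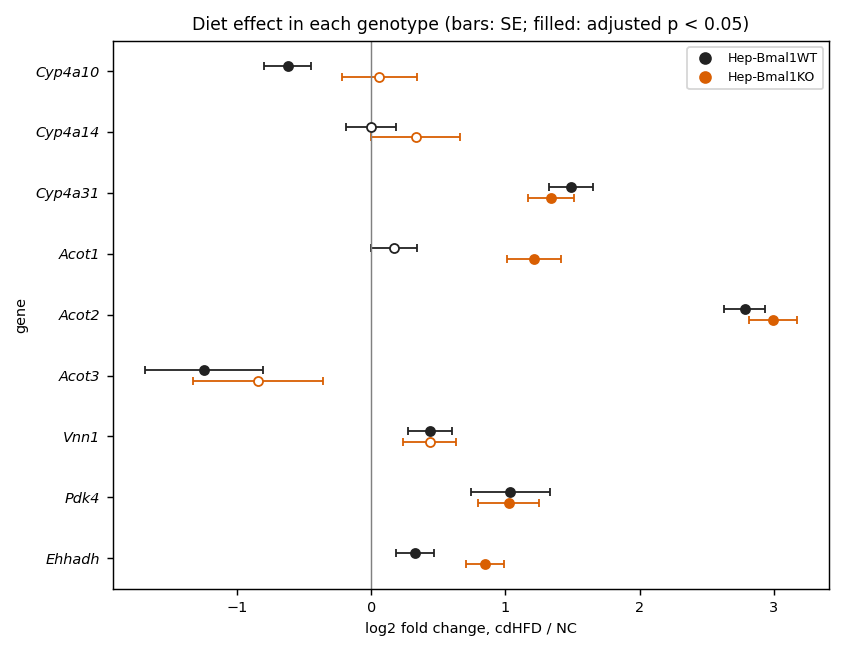
Log2 fold change of cdHFD over NC for each of the 9 genes, by genotype, with bars for the SE and filled points for adjusted p under 0.05. Acot2 lies at 2.79 and 2.995, and Acot1 has the points of the 2 genotypes apart, at 0.17 and 1.22.

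These livers are bulk tissue, in which fewer cells of a type and less RNA per cell cannot be told apart. The summed level of 5 hepatocyte markers found in the table was 85995–201936 CPM in Hep-Bmal1WT mice on NC (median, 145576) and 51746–88422 CPM on cdHFD (median, 71953), with medians of 96700 and 60925 CPM in Hep-Bmal1KO mice. All 11 macrophage and Kupffer cell markers were detected, and their sum had medians of 444 and 2096 CPM in Hep-Bmal1WT and 442 and 2446 CPM in Hep-Bmal1KO mice on NC and cdHFD, with no overlap between diets. The 8 stellate cell markers had medians of 254 and 683 CPM, and 255 and 866 CPM. The sum of the 5 cholangiocyte markers moved with genotype, in ranges that overlapped. Its medians were 51.1 CPM in Hep-Bmal1WT against 89.9 CPM in Hep-Bmal1KO mice on NC, and 104 against 225 CPM on cdHFD. Spp1 is on both this list and the macrophage list, and values of single markers are not given here. The sum of the 4 neutrophil markers moved with diet, with medians of 11.2 and 83.8 CPM on NC and cdHFD in Hep-Bmal1WT and 10.6 and 97.99 CPM in Hep-Bmal1KO mice. The 6 endothelial markers had group medians between 142 and 170 CPM, and lymphocyte and adipocyte markers had medians below 8.25 CPM. The highest adipocyte sums were 81.6 CPM on NC and 71.1 CPM on cdHFD in Hep-Bmal1WT, and 55.1 and 42.8 CPM in Hep-Bmal1KO mice. Some livers thus held adipocyte transcripts that the medians do not show. Kidney tubule markers, from a tissue rich in Cyp4a, did not exceed 1.71 CPM in sum. The part of these shifts in the diet and genotype values was not tested.

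Profiles over the day were tested in each group of genotype and diet. Rhythmic here means that, over the 24 livers of a group, 1 or more of 3 tests of a 24-hour rhythm gave an unadjusted p below 0.01. The tests were a cosinor fit, JTK_CYCLE and edgeR with a cosine and a sine term. On NC, 5 members were called in Hep-Bmal1WT mice (Cyp4a31, Acot1, Acot2, Vnn1 and Pdk4, 21.4% of all genes) and none in Hep-Bmal1KO mice (10.5%), where no member had a p under 0.05 in any of the 3 tests. On cdHFD, 2 were called in Hep-Bmal1WT mice (Acot1 and Pdk4, 18.1%) and none in Hep-Bmal1KO mice (9.67%), again with no p under 0.05. By JTK_CYCLE alone the counts in Hep-Bmal1WT mice were 0 on NC and 1 on cdHFD. The pooled fits hold both sexes. In males alone 2 members were called in Hep-Bmal1WT mice on NC (Cyp4a31 and Acot2, 12.4% of all genes) and 3 in Hep-Bmal1KO mice (Cyp4a14, Cyp4a31 and Acot2, 6.84%), so the pooled order of the genotypes on NC did not hold there, and on cdHFD 5 (11.4%) and 1 (7.1%) were called. In females alone the counts were 2 (13.6%) and 0 (5.85%) on NC, and 3 (8.77%) and 1 (4.79%) on cdHFD. A call in one genotype and not in the other does not show a difference, and the shape of the 24-hour profile differed between genotypes for 0 members on NC and 0 on cdHFD at adjusted p under 0.05 (edgeR, 0.386% and 0.431% of all genes), with 0 and 1 members at an unadjusted p under 0.05. The share of all genes at that unadjusted threshold was not counted.

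The peaks of the rhythmic members were spread over the day. In Hep-Bmal1WT mice on NC the fitted peak, on the variance-stabilised scale, was at ZT 6.62 for Acot2 (SE, 1.01 h), 7.73 for Cyp4a31 (SE, 1.11 h), 13.2 for Vnn1 (SE, 1.05 h), 20.6 for Acot1 (SE, 1.09 h) and 23.7 for Pdk4 (SE, 1.12 h). Their amplitudes lay between 0.51 and 0.69. Acot1 and Acot2, neighbours on chromosome 12, thus had fitted peaks in the dark and in the light phase. On NC, Acot1 in Hep-Bmal1WT mice had 27.8, 33.6, 35.5 and 54.5 CPM at ZT10 and 87.99, 99.6, 223 and 223 CPM at ZT22. The lowest liver at ZT22 was above the highest at ZT10.

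Acot1 had the highest fitted amplitude of the 9 members in Hep-Bmal1WT mice on cdHFD, on the variance-stabilised scale. It was 41.3, 45.9, 53.6 and 81.1 CPM at ZT10 (mean, 55.5 ± 17.8, SD, n = 4) and 212, 276, 306 and 321 CPM at ZT22 (mean, 279 ± 48.6, SD, n = 4), with an amplitude of 1.03 (SE, 0.22). In Hep-Bmal1KO mice on cdHFD it was 43.5, 95.9, 104 and 128 CPM at ZT10 and 100, 123, 212 and 235 CPM at ZT22, so that the 2 times overlapped, and the amplitude was 0.43 (SE, 0.20). The amplitude was smaller in Hep-Bmal1KO mice by 0.61 (SE, 0.30, unadjusted p = 0.0469, adjusted p = 1, n = 24 livers in each genotype). For Pdk4 it was smaller by 0.45 (SE, 0.20, unadjusted p = 0.0319, adjusted p = 1, n = 24). These were the 2 members with an unadjusted p under 0.05 for amplitude on cdHFD, and there were 0 on NC (2.93% and 4.12% of all genes). Between diets there were 0 in each genotype (7.92% in Hep-Bmal1WT and 4.25% in Hep-Bmal1KO mice). Leaving out 1 replicate number in turn left between 0 and 2 on cdHFD.

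The fitted mean level of the profile (mesor) differed between genotypes at an unadjusted p under 0.05 for 6 members on NC and 5 on cdHFD (22.2% and 21.1% of all genes, between diets 60.2% in Hep-Bmal1WT and 64.8% in Hep-Bmal1KO mice). On this scale Cyp4a10 also passed on NC, at -1.14 (SE, 0.33, unadjusted p = 0.00125, adjusted p = 0.0187, n = 24 livers in each genotype).

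Pdk4 and Acot1 were called rhythmic in Hep-Bmal1WT mice on both diets, so their peak times could be compared. On NC the call of Pdk4 rested on the cosinor fit alone (unadjusted p = 0.00984, adjusted p = 0.0552, n = 24), with an unadjusted p of 0.0681 by JTK_CYCLE and 0.0177 by edgeR, at the low levels that follow. Pdk4 in Hep-Bmal1WT mice had 1.93, 2.27, 4.67 and 7.72 CPM at ZT2 on NC and 0, 0, 0.631 and 1.56 CPM at ZT10, and on cdHFD 1.12, 1.46, 2.08 and 3.57 CPM at ZT2 and 1.16, 3.90, 4.997 and 6.43 CPM at ZT10. Its fitted peak was earlier by 6.45 h on cdHFD (ZT 17.3 against 23.7, SE of the difference, 1.37 h, unadjusted p = 2.75e-05, n = 24 livers on each diet). Acot1 moved by -1.15 h (SE, 1.38 h, unadjusted p = 0.407, n = 24). Arntl itself had its highest mean at ZT2 on NC (20.2 ± 4.65 CPM, SD, n = 4) and at ZT22 on cdHFD (21.2 ± 1.98 CPM), and its part in the shift of Pdk4 was not tested.

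At single times, with 4 livers in each genotype, few comparisons passed. On NC, none of the 54 pairs of member and time passed (edgeR, 1.7% of all gene and time pairs), 9 had an unadjusted p under 0.05, and DESeq2 called 1. With sex as a covariate 4 pairs passed, and without the clock-discordant libraries 3. Shares of all pairs were not counted for these fits, for DESeq2 or at the unadjusted threshold. On cdHFD, 1 pair passed (0.12% of all pairs): Pdk4 at ZT6 was 0.639, 1.09, 1.37 and 2.16 CPM in Hep-Bmal1WT mice and 4.82, 7.22, 7.29 and 11.3 CPM in Hep-Bmal1KO mice, with no overlap, a difference of 2.53 on the log2 scale (SE, 0.58, adjusted p = 0.0241). It did not pass when any 1 replicate number was left out. The diet effect passed at 15 of 54 pairs in Hep-Bmal1WT mice and at 18 of 54 in Hep-Bmal1KO mice, all higher on cdHFD (28.3% and 32.1% of all pairs in either direction). Acot2 passed at each of the 6 times in both genotypes, by 2.31–3.62 in Hep-Bmal1WT mice.

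**Figure D4:**
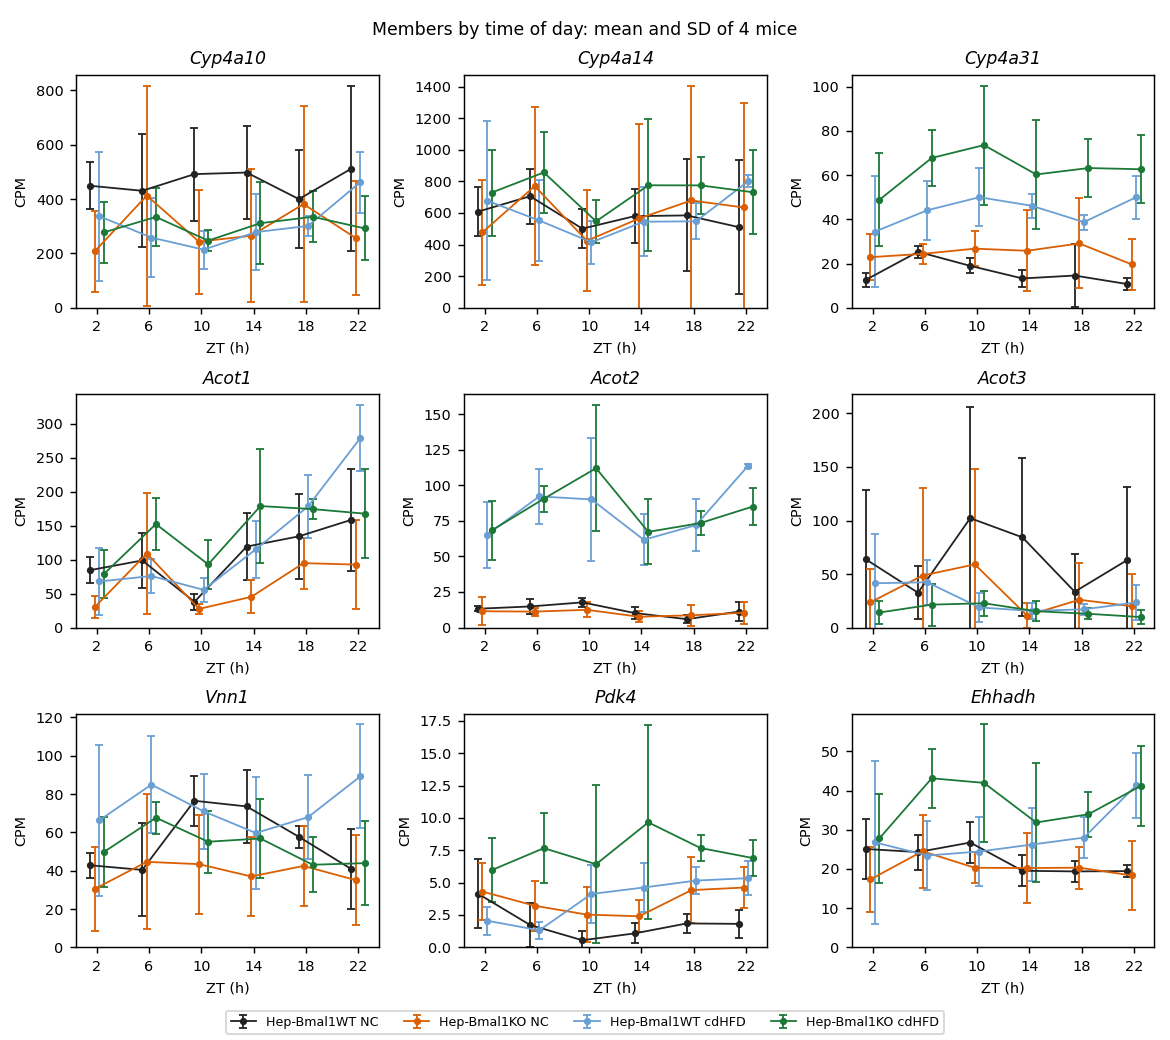
Levels of the 9 genes in CPM against ZT in hours, as mean and SD of 4 livers for each genotype and diet, with axes that start at 0. Acot1 in Hep-Bmal1WT mice on cdHFD climbs from 55.5 at ZT10 to 279 CPM at ZT22, Acot2 lies high on cdHFD at each time, and the wide bars of Cyp4a10, Cyp4a14 and Acot3 hold both sexes.

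With both sexes pooled, all members but Pdk4 also moved together from liver to liver. After the mean of each of the 24 groups was taken from log2 CPM, 35 of the 36 pairs of members had a positive Pearson correlation over the 96 livers (median r, 0.67, range, -0.04 to 0.92), with Cyp4a10 and Cyp4a14 the closest pair. Over all 120862378 pairs of genes tested, 50.6% were positive and the median r was 0.0023. The 28 pairs without Pdk4 all passed a permutation test within groups at an adjusted p under 0.05, with r from 0.48. Of the 8 pairs with Pdk4, 2 passed, those with Cyp4a31 (r = 0.26) and Ehhadh (r = 0.29), and 4.38% of all pairs of genes had an r as high as the lowest that passed. Both sexes are in each group, so this holds the sex difference. With the sex means of each genotype and diet removed as well, a step added after the sex effects had been seen, 33 pairs were positive, the median r was 0.37 and the range was -0.10 to 0.72 (over all pairs of genes, 50.7% positive, median r, 0.0024). Cyp4a10 and Cyp4a14 still had r = 0.72 (Spearman rho, 0.74, r = 0.71 without the 2 livers farthest from the median, permutation p = 2e-05 for r and 1e-05 for rho, the smallest that the permutations can give, adjusted p = 0.00024 and 0.00018), and Cyp4a10 with Acot1 had r = 0.67 (rho, 0.66, r = 0.64 without 2 livers, permutation p = 0.00011 and 6e-05, adjusted p = 0.000566 and 0.000504). Cyp4a10 and Ehhadh had r = 0.62 (rho, 0.58, r = 0.60 without 2 livers, permutation p = 3e-05 and 7e-05, adjusted p = 0.00027 and 0.000504). By a permutation test within group and sex, 20 of the 36 pairs passed an adjusted p of 0.05 for Pearson's r, of which 1 held Pdk4, against 30 with the sexes pooled. The lowest r that passed was 0.31, reached by 1.93% of all pairs of genes. Within each diet, sexes pooled, the median r of the 36 pairs was 0.69 among the NC livers and 0.68 among the cdHFD livers. Pairs within each cluster are of the same gene family and may share reads, and all pairs share the library's depth.

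**Figure D5:**
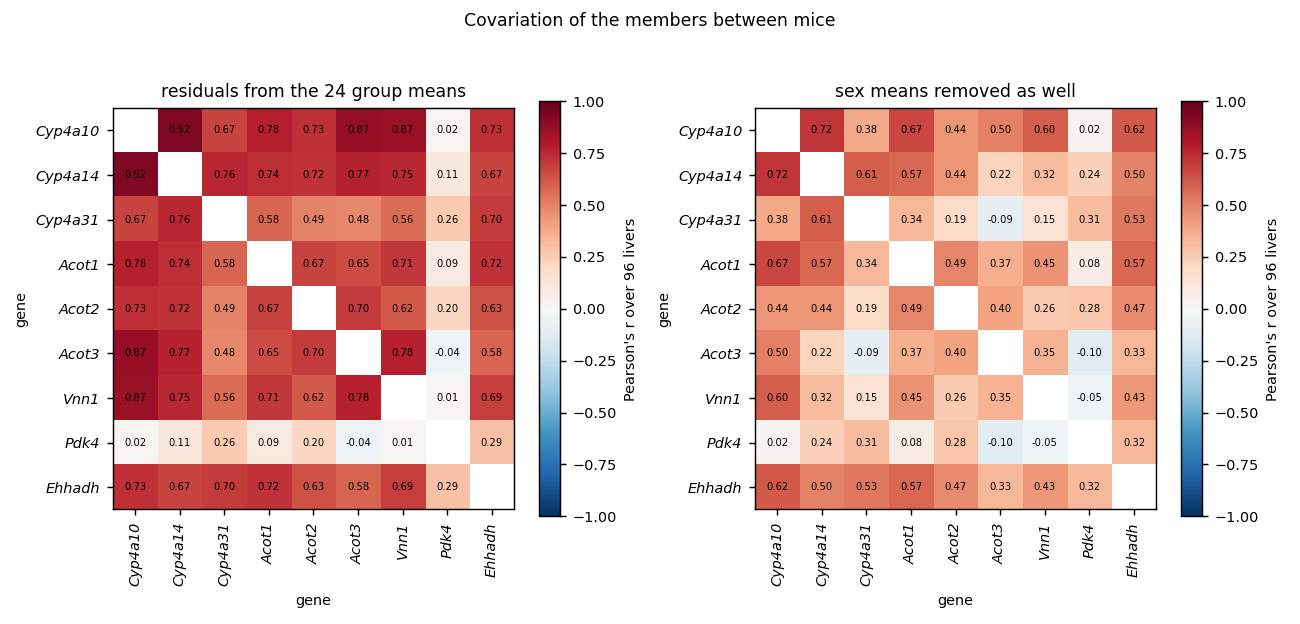
Pearson's r for each of the 36 pairs of genes over 96 livers, after the means of the 24 groups were removed (left) and with the sex means removed as well (right), printed in each cell and coloured from -1 to 1. The median falls from 0.67 at left to 0.37 at right, and the row of Pdk4 is pale in both.

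Genes of the wider PPARα programme were counted on lists, beside 7.08% of all genes higher and 5.45% lower in Hep-Bmal1KO mice on NC. Ppara itself was lower in Hep-Bmal1KO mice on NC by -0.52 (SE, 0.13, adjusted p = 0.00512) and Ppard, a sister receptor, was higher by 1.04 (SE, 0.23, adjusted p = 0.00115). Of 18 genes of the receptor and its partners, 1 was higher and 2 lower, the other being Creb3l3 (-0.22, SE, 0.05), a hepatic factor that acts with PPARα. On cdHFD Ppara was at -0.10 (SE, 0.09, adjusted p = 0.596) and Ppard at 0.32 (SE, 0.14, adjusted p = 0.156). Across genotypes on NC, 3 of 20 mitochondrial oxidation genes were higher and 10 lower, with a median of -0.16 on the log2 scale beside -0.01 over all genes tested. Slc25a20, the carnitine carrier, was at -0.39 (SE, 0.08) and Cpt1a, which starts the import of fatty acids into mitochondria, at -0.27 (SE, 0.06). Of 14 peroxisomal genes tested, 1 was higher and 6 lower (median, -0.23). Among them the thiolases Acaa1a and Acaa1b were at -0.55 (SE, 0.07) and -0.73 (SE, 0.13) and Hsd17b4, the other peroxisomal bifunctional enzyme, at -0.37 (SE, 0.06). Of 26 genes of microsomal oxidation and lipid handling none was higher and 10 were lower (median, -0.15). Aldh3a2, an aldehyde dehydrogenase that follows omega-hydroxylation, was at -1.02 (SE, 0.17), the fatty acid binding protein Fabp1 at -0.67 (SE, 0.09) and the lipase Mgll at -0.47 (SE, 0.07). Of 16 genes of coenzyme A metabolism 1 was lower, Pank1, at -0.21 (SE, 0.06), and of 12 genes of pyruvate dehydrogenase 2 were, Pdk1 at -0.37 (SE, 0.10) and Pdha1 at -0.19 (SE, 0.06).

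On cdHFD, where 4.75% of all genes were higher and 4.92% lower, the genotype calls of the same lists, higher and then lower, were 0 and 2 for the receptor and its partners, 0 and 1 for mitochondrial, 1 and 4 for peroxisomal, 1 and 7 for microsomal, 0 and 2 for coenzyme A and 0 and 2 for pyruvate dehydrogenase genes. In males on NC, 10 of 20 mitochondrial, 9 of 14 peroxisomal and 12 of 26 microsomal genes were lower and 1, 0 and 1 higher (of all genes, 5.32% lower and 5.69% higher). In females 0, 1 and 3 were lower and 0, 0 and 2 higher (1.44% and 2.07% of all genes). Without the 6 clock-discordant females 2, 5 and 7 were lower and 1, 1 and 2 higher (3.02% and 4.1%). The test of genotype by sex on NC passed for 5 genes of these lists, all more positive in females (0.322% of all genes, and 0.187% in the other direction). They were 3 of 26 microsomal genes, Aldh3a2 (1.26, SE, 0.19), Me1 (0.97, SE, 0.17) and Cd36 (1.07, SE, 0.21). The others were 2 of 14 peroxisomal genes, Acaa1b (0.81, SE, 0.19) and Abcd2 (1.42, SE, 0.35).

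The lists held genes called in both directions between diets, as did all genes (28.4% higher and 27.3% lower in Hep-Bmal1WT, 32.4% and 29.6% in Hep-Bmal1KO mice). In Hep-Bmal1WT mice, 9 of the 26 microsomal and lipid handling genes were higher on cdHFD and 12 lower, with Fgf21, a fasting hormone, at 4.27 (SE, 0.34), the lipid droplet gene Cidec at 3.78 (SE, 0.24), Fabp1 at -1.62 (SE, 0.08) and Me1 at -1.65 (SE, 0.10). Of the mitochondrial genes 4 were higher and 12 lower, of the peroxisomal 1 and 7, of the coenzyme A genes 2 and 10, of the pyruvate dehydrogenase genes 3 and 9, and of the receptor list 1 and 5. The same counts in Hep-Bmal1KO mice were 11 and 12, 5 and 10, 3 and 7, 2 and 10, 3 and 9, and 1 and 4. Cpt1a rose by 0.55 (SE, 0.08) in Hep-Bmal1WT and by 0.83 (SE, 0.06) in Hep-Bmal1KO mice, and Pdk1 fell by 1.48 (SE, 0.10) and 1.38 (SE, 0.10) while Pdk4 of the same kinase family rose.

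The genes outside the set whose 24 group means of log2 CPM were most like the mean profile of the 9 members were, by Pearson's r, Pltp (0.886), Rad51b (0.884), Gpx7 (0.882), Gm15441 (0.870), Incenp (0.869), Dusp5 (0.865), Sting1 (0.861), Col5a2 (0.860), Cap1 (0.860) and Acadm (0.859). The members themselves had r from 0.37 for Acot3 and 0.41 for Pdk4 to 0.86 for Cyp4a14 and 0.88 for Ehhadh with the mean that includes them, so the members were unequally like it.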

How the data were processed

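Liver RNA was measured by BRB-seq, which reads transcripts from the 3′ end. The authors aligned reads to the mouse genome (mm10) with STAR, counted them per gene with HTSeq and featureCounts, and deposited raw counts for 96 libraries; DESeq2 is also named in the submitters' notes, and versions are not given in the sources used here. Rows that name no gene were left out: between 14.8% and 34.0% of reads were unaligned and between 5.65% and 11.3% fell in no gene. Positions came from RefSeq (GRCm38.p6).

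Groups were read from the labels. Genes with a summed count of at least 100 were tested with edgeR 4.0.16 (quasi-likelihood, TMM) in R 4.3.3, with Benjamini-Hochberg adjustment over all 15548 genes. Time was a factor, or genotype and time in tests of sex. Rhythms were fitted to variance-stabilised values of DESeq2 1.42.0, log2-like, and to counts. CircaCompare was refitted by least squares. Correlations used 100000 permutations within groups. Levels are TMM-scaled CPM. Scripts were tested on simulated counts.

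All 9 members are named. The members, gene lists and tests were chosen with earlier results of these data known. From each list no more than 3 called genes per direction and comparison are named, those with the lowest p. The 10 genes of most like profile are also named. Promoter motifs and protein sequences were not analysed here. Alternatives were DESeq2 tests and size factors, stricter and no count filters, log2 CPM, single rhythm tests, a sex covariate, each sex alone, each replicate left out, and the clock-discordant libraries left out.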

Additional observations from a re-analysis of the deposited data

Results flagged for a closer look

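In 11 of 216 groups of 4 livers, counted over the 9 genes and 24 groups, 1 liver lay far from the other 3 by Dixon's test at the 95% level, a rule that chance meets in about 1 of 20 groups. On NC these were Cyp4a14 in a Hep-Bmal1WT male at ZT6 (446 CPM; the others, 775–801), Cyp4a31 in a Hep-Bmal1WT female at ZT6 (21.4; 26.3–27.2), Acot2 in a Hep-Bmal1WT female at ZT18 (10.3; 4.27–4.57) and Pdk4 in a Hep-Bmal1WT female at ZT22 (3.44; 1.11–1.42). In Hep-Bmal1KO females on NC they were Acot1 at ZT2 (54.4; 19.7–22.7), Ehhadh at ZT2 (29.7; 11.6–14.1), and Acot1 (240.3; 47.7–73.9) and Acot3 (170.8; 0–21.6) in the same liver at ZT6. On cdHFD they were Acot2 in a Hep-Bmal1WT male at ZT18 (44.8; 79.9–82.4) and, in 1 Hep-Bmal1KO male at ZT22, Cyp4a31 (39.9; 67.9–73.4) and Ehhadh (25.9; 44.9–47.6). The clock genes lay nearer the other label in the liver of Cyp4a14 at ZT6, of Pdk4 at ZT22, of Ehhadh at ZT2 and of Acot1 and Acot3 at ZT6, all on NC.

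The genotype effect differed between the diets for Acot1, by 1.05 on the log2 scale. On NC it differed between the sexes for Cyp4a10 (1.62), Cyp4a14 (2.16), Vnn1 (0.94) and Ehhadh (0.69), and this dependence on sex differed between the diets for Cyp4a10 (-1.96) and Cyp4a14 (-2.29). Over both genotypes, the diet effect differed between the sexes for Cyp4a10 (-0.98), Cyp4a14 (-1.22), Acot2 (-0.58) and Acot3 (-2.46). Each passed an edgeR interaction test adjusted over all genes.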

How the results depend on the processing

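Of 1098 alternative values for single members, 975 kept their direction and their side of the threshold, 66 no longer passed, 53 came to pass and 4 turned in sign, called in only 1 of the 2 fits. Some alternatives left out no liver of the fit, such as single-sex fits on NC without a replicate number of the other sex. These repeated the main fit and were bound to stay the same, so 975 overstates how stable the values were. The 4 turned values were genotype on NC for Cyp4a14 in males (-1.69), diet for Acot3 in Hep-Bmal1WT males (0.10) and Hep-Bmal1KO males (2.42), and diet for Cyp4a10 in Hep-Bmal1KO females (-0.44). Of 269 alternative counts of members, 202 stayed within 1.5 times the count reported. The cause of the other moves was not tested.

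Without the clock-discordant libraries the counts became 6 for genotype on NC, 5 for genotype in females on NC, 2 for genotype by diet, 3 for genotype at single times on NC, 3 rhythmic members in Hep-Bmal1WT mice on NC, and 1 amplitude difference on each diet. Without those past 0.75 of the way they were 6, 6, 3 (single times, NC) and 1 (amplitude, cdHFD). With a sex covariate they were 6 for genotype on NC, 8 for diet in Hep-Bmal1KO, 2 for genotype by diet and 4 at single times on NC. Males alone gave 8 for genotype on NC, 3 for diet in Hep-Bmal1WT, 9 for diet in Hep-Bmal1KO, 6 for genotype by diet, 2, 5, 3 and 1 rhythmic members in Hep-Bmal1WT on NC and cdHFD and Hep-Bmal1KO on NC and cdHFD, and 0 amplitude and 3 mesor differences on cdHFD. Females alone gave 0 for genotype by diet, 2 rhythmic members in Hep-Bmal1WT on NC and 1 in Hep-Bmal1KO on cdHFD, 3 mesor differences on NC and 0 amplitude differences on cdHFD. Single sexes hold fewer livers. Shares over all genes were not counted for most of these alternative fits. Rhythmic members in Hep-Bmal1WT on NC numbered 0 by JTK_CYCLE, 3 by edgeR and 3 after adjustment, and 1 on cdHFD by JTK_CYCLE. At single times on NC, DESeq2 and a stricter count filter each gave 1, and log2 CPM gave 1 amplitude difference on cdHFD.

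With each replicate number left out, the counts ranged over 1–4 for genotype on NC and 2–2 on cdHFD, 4–6 and 5–6 for diet in Hep-Bmal1WT and Hep-Bmal1KO, 0–1 for genotype by diet, 8–8 and 4–7 for sex on NC and cdHFD, 1–2 for genotype by sex on NC, 5–8 in males and 0–4 in females on NC, and 0–2 for genotype, sex and diet. On NC every replicate number was of a single sex. In the single-sex fits there, leaving out a number of the other sex repeated the full fit, and the ranges include those repeats. At single times they were 0–0 for genotype on cdHFD, and 10–14 and 12–20 for diet. Rhythmic members numbered 2–4 and 2–6 in Hep-Bmal1WT on NC and cdHFD and 0–1 in Hep-Bmal1KO on cdHFD. Mesor differences numbered 5–9 on NC and 3–6 on cdHFD, and amplitude differences 0–2 on cdHFD. Shares over all genes were not counted for the fits that left out a replicate number. No paired analysis was possible because replicate numbers were given in accession order and pair no mice. Pdk4, at counts of 0 to 143 per library, is limited by depth.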
